A study of Mus musculus with 10 samples.

Results

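To ask where the Polycomb mark H3K27me3 was listed in Arid1a WT cells and not in Arid1a KO cells, 1296 wildtype-only H3K27me3 summits were examined, of 26240 autosomal WT summits that passed the same value filter (4.94%). A summit is the single position that the peak caller MACS2 gives for a peak, and its value is the −log10 q-value of that peak in its own library. A summit was called wildtype-only when its value was at least 4 and no KO H3K27me3 summit of any value lay within 3 kb. The other 24944 summits had a KO summit within 3 kb and are called kept. The members were thus chosen by the WT value and the distance to the nearest KO summit, and both are given below as descriptions, with no test.

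The lists come from chromatin immunoprecipitation with sequencing (ChIP-seq) of AB17, 1 line of immortalized hepatocytes from a C57BL/6 Arid1a fl/fl mouse, which carried SV40 large T antigen and H-Ras V12D. The WT cells had been infected with the adenovirus Ad-GFP as a control and the KO cells with Ad-Cre, which deletes Arid1a, so both genotypes shared the fl/fl alleles, the large T antigen and the activated Ras. H3K27me3 and H3K9me3 lists came from both genotypes, and Arid1a, Brg1, Ctcf and Rad21 lists from WT cells. Each group was 1 library, so differences were not checked over replicates and p-values are not given. Intervals in parentheses are 95% Wilson intervals for shares and Newcombe intervals for differences between shares. They cover counting error only, and neighbouring summits are not independent.

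H3K27me3 is laid down by the Polycomb repressive complex PRC2 and marks silenced genes, above all regulators of embryonic development in cells where they are not used. Arid1a is a DNA-binding subunit of the SWI/SNF chromatin remodelling complex, Brg1 is its ATPase, and SWI/SNF is known as an opponent of Polycomb in flies and mammals. Ctcf binds DNA through its zinc fingers and sits at the anchors of chromatin loops, and Rad21 is a subunit of the cohesin ring that extrudes loops. H3K9me3 marks constitutive heterochromatin.

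Of the sequences under these summits, 4 stretches reaching 100 bases to each side of a summit are shown, as examples of sites named below. All 4 lay within 2 kb of a transcript start, as did 18.3% of members. Their values were 7.77 to 105, against a median of 4.24 over all members, so no typical weak member is shown. The stretches were read from the RefSeq GRCm38 assembly, plus strand, and the CG dinucleotides, the sites of DNA methylation that are dense in Polycomb target promoters, are in capitals. The first lies 1034 bp upstream of the start of Barhl2 and holds 12 CG (chr5:106459100-106459300). The second lies 1063 bp inside Alx4 and holds 27 CG (chr2:93643347-93643547). The third lies 1321 bp inside Adam19, far from any KO summit, and holds 11 CG (chr11:46057213-46057413). The fourth lies at the wildtype-only summit of highest value, inside the read-through model Gm20388, and 146 of its bases are soft-masked repeat (chr8:123617413-123617613).
Barhl2: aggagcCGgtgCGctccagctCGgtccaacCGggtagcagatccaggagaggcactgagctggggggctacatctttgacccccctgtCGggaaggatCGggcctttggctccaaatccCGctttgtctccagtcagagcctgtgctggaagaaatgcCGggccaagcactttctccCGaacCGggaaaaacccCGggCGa
Alx4: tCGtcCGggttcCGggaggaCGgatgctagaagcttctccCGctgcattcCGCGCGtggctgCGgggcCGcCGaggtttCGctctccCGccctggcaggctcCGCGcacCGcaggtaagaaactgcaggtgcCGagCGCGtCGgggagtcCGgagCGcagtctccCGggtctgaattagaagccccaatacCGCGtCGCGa
Adam19: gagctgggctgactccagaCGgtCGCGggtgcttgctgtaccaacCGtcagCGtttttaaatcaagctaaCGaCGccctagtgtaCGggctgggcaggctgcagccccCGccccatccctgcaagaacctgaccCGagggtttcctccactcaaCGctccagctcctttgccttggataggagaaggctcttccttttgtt
Gm20388: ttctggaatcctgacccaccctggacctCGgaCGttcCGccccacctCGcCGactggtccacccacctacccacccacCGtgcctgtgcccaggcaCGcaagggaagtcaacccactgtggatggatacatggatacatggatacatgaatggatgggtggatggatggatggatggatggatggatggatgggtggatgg

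The WT H3K27me3 list held 109601 summits and the KO list 86050, and their read depth is unknown from the lists. On the autosomes 26240 WT and 21435 KO summits had a value of at least 4. Taken the other way round, 1303 of those KO summits had no WT summit within 3 kb (6.08%, 5.77 to 6.41), so unmatched summits were found in both directions. Arid1a was profiled only in WT cells, so loss of the protein could not be checked in the KO lists. Of 46 hepatocyte genes, 11 had a WT H3K27me3 summit of value 4 or more within 2 kb of the start (23.9%, against 14.2% of 20807 autosomal protein-coding genes), among them Ahsg, Fgg, Pck1, Cebpa, Foxa1 and Foxa3. In lists of other cell types the shares were 22.7% for endothelial and 23.1% for blood cell genes. They were 27.8% for stellate and fibroblast genes, 45.5% for neuronal genes and higher still for 12 biliary and progenitor genes. The share above that of all genes was thus not particular to the hepatocyte list. Peak lists do not measure expression, so the hepatocyte label could not be tested.

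Most wildtype-only summits were weak. Their median value was 4.24, against 4.79 among kept summits, and 943 lay between 4 and 5, 251 between 5 and 10, and 102 at 10 or more. A single value, 4.08, was shared by 456 members (35.2%) and by 17.6% of kept summits. The members fell into 1219 sites when summits at most 3 kb apart were joined, and 1150 of these held 1 summit. The largest, within Sorcs2 and 75897 bp upstream of Psapl1, held 4.

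The share of WT summits that were wildtype-only did not fall steadily with value. It was 7.93% (7.38 to 8.52) from 4 to 4.5, fell to 2.30% (1.81 to 2.92) from 7 to 10, and was 8.63% (5.46 to 13.4) at 30 or more, where 17 of 197 summits were members. Strong and weak members thus formed both ends of the range, and they differed in their surroundings.

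**Figure D1:**
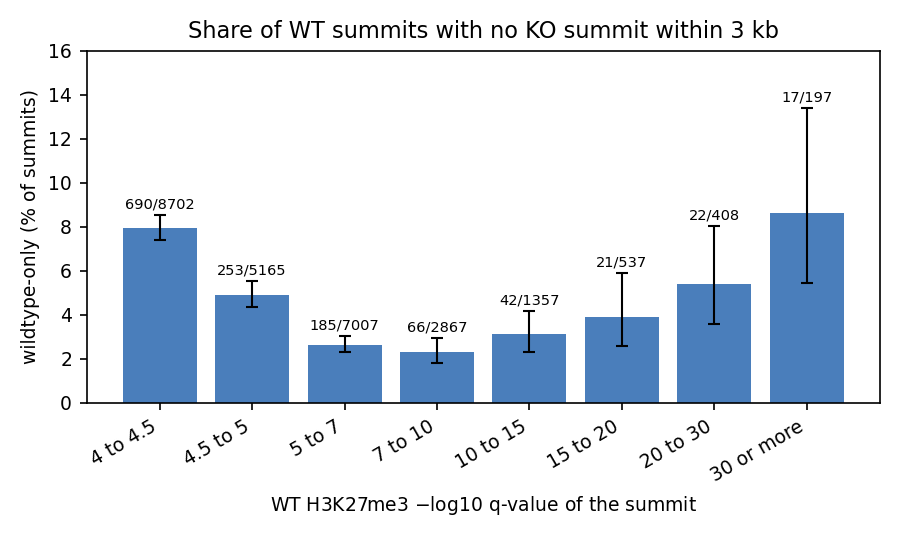
Share of autosomal WT H3K27me3 summits called wildtype-only (%, vertical axis) in classes of the WT −log10 q-value (horizontal axis), with 95% Wilson intervals as error bars and member and total counts above them. The share is 7.93% in the lowest class, 2.30% from 7 to 10 and 8.63% at 30 or more.

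A KO H3K27me3 summit was usually not far away. The nearest one lay 3 to 5 kb from 675 members (52.1%), 5 to 10 kb from 316 (24.4%), 10 to 20 kb from 106 (8.18%), 20 to 50 kb from 103 (7.95%) and over 50 kb from 96 (7.41%). All 102 members of value 10 or more had a KO summit within 10 kb, the farthest at 9515 bp. The 199 members with no KO summit within 20 kb, called isolated here, had values of 4.01 to 7.77 with a median of 4.08. At the edge of the rule, 271 members lay 3 to 3.5 kb from a KO summit and 452 kept summits 2.5 to 3 kb, both with a median value of 4.76. The lowest member value was 4.0047, and the highest WT value left out was 3.9953.

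**Figure D2:**
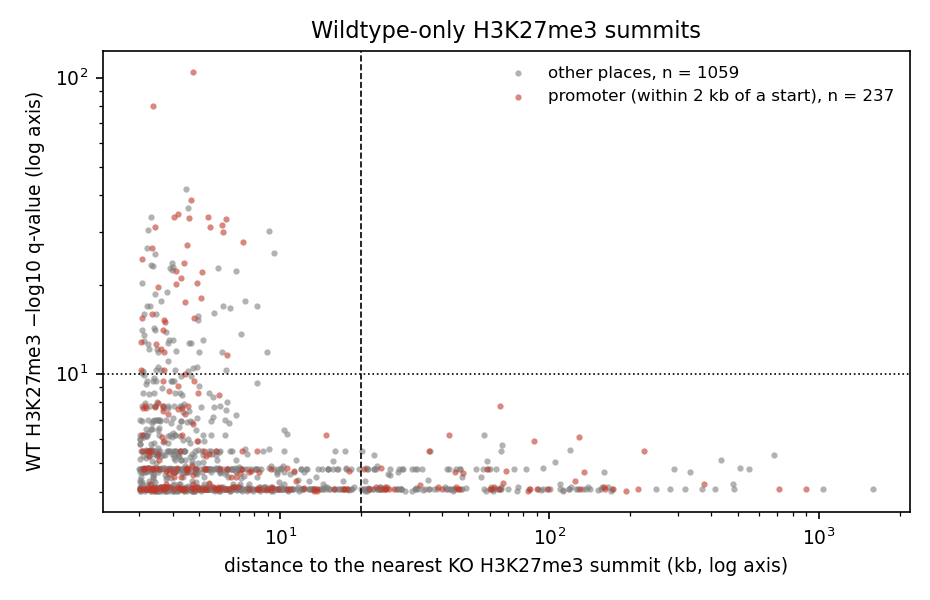
Value of each wildtype-only summit (WT −log10 q-value, log axis) against its distance to the nearest KO H3K27me3 summit (kb, log axis), with 237 promoter summits in red and 1059 others in grey, a dashed line at 20 kb and a dotted line at 10. All 102 points above the dotted line lie within 10 kb of a KO summit, and the 199 isolated summits do not exceed 7.77.

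Most strong members were lone summits, and so were most kept summits of that strength. Kept summits have a KO summit within 3 kb by definition. The rule for members, which asks for no KO summit within 3 kb, may itself favour lone summits, and this was not tested. Among the 102 members of value 10 or more, 13 had another WT summit within 3 kb (12.7%, 7.60 to 20.6), against 35.0% (33.2 to 37.0) of kept summits of that strength. The median distance to the next WT summit was 5900 bp, against 3778 bp. A KO summit lay within 10 kb on both sides of 71 of the 102 (69.6%) and on 1 side of the other 31. The best KO summit within 10 kb had a median value of 12.4 and ranged from 2.42 to 55.5. It was at least as high as the member itself for 14.7% of strong members and 15.7% of strong kept summits. Values come from libraries of unknown depth, so these shares only set the strong members beside kept summits in the same pair of lists. The lists give summits without peak widths, so whether a strong member lay inside a KO peak whose summit was farther off was not tested.

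**Figure D3:**
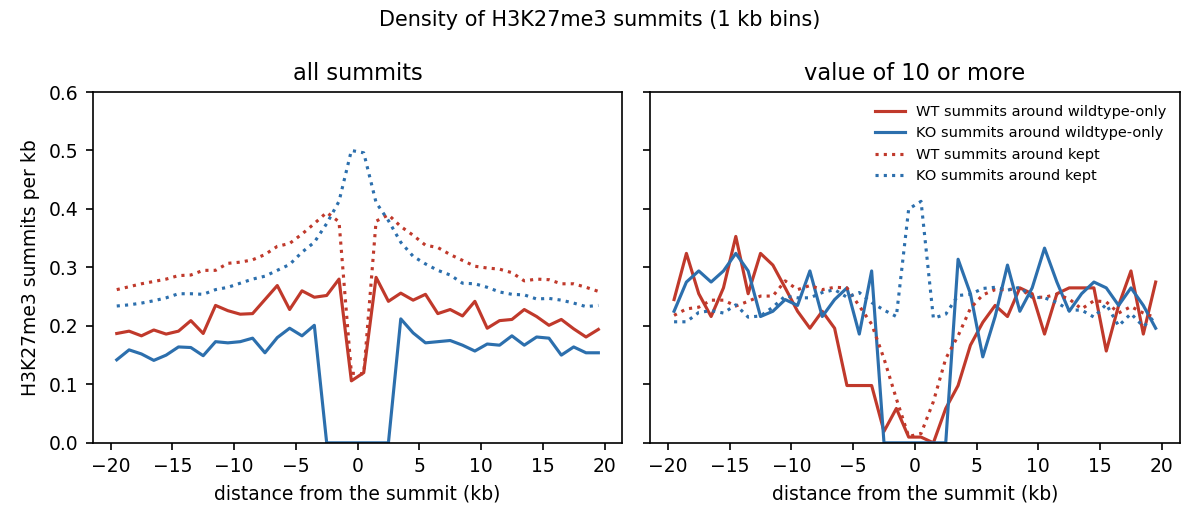
H3K27me3 summits per kb (vertical axis, 1 kb bins) by distance from the central WT summit (kb), which is itself not counted, around wildtype-only (solid) and kept (dotted) summits, with WT summits in red and KO summits in blue, for all values (left) and values of 10 or more (right). The gap in the blue solid lines within 3 kb is set by the rule. In the bin from 3 to 4 kb to the right of strong members KO summits stood at 0.314 per kb and WT summits at 0.0980. Around strong kept summits they stood there at 0.252 and 0.183. In the bin centred at 5.5 kb to the right of strong members the order was the other way, with KO at 0.147 and WT at 0.206.

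The 10 highest sites lay near 10 different protein-coding genes and reached 33.5 or more. The highest of all, 105, lay on chromosome 8 at 123617513, in soft-masked repeat within Gm20388 and near the start of an annotated transcript, with a KO summit of 55.1 at 4728 bp. The next, 80.1, lay on the same chromosome at 123574099, also in repeat, with a KO summit of 55.5 at 3362 bp. These 2 positions stood apart from the rest, whose highest value was 41.9.

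The site of 41.9 lay 7834 bp upstream of Neurod2, a neuronal basic helix-loop-helix factor, and its highest KO summit within 10 kb reached 30.3. A summit of 38.5 lay 9995 bp inside Nrxn2, which encodes a presynaptic neurexin, and the best KO summit within 10 kb was 21.6. A summit of 36.1 lay in an exon 3445 bp downstream of the start of Gfy, and one of 33.9 lay 2007 bp downstream of the start of Irx3, a homeobox factor, with a KO summit of 29.2 at 4034 bp. A summit of 33.7 nearest to Syt3, a synaptotagmin, lay in an exon within Shank1, a postsynaptic scaffold gene, and another of 33.7 lay 9632 bp upstream of Gm4881. Of these 10 highest sites, which include Barhl2 and Alx4 below, only the one nearest to Gm4881 had no KO summit above 5 within 10 kb, its best being 4.05.

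At protein-coding gene starts, 16 members had a value of 10 or more, and 8 of the 16 genes were on the list of homeobox genes outside the Hox clusters. These starts held 15.7% of strong members and 46.2% of strong kept summits. Of the listed homeobox genes, 52.3% had a WT summit of value 4 or more at the start, against 14.2% of all genes. Strong kept summits at homeobox starts were not counted, so whether 8 of 16 is particular to members was not tested. The 10 highest members within 2 kb of a protein-coding start belonged to Barhl2, Alx4, Dmrt3, Nkx2-5, Lhx2, En2, Sim1, Dlx6, Ndrg4 and Slit1. The Barhl2 summit, 34.6, was the only WT H3K27me3 summit within 10 kb, and a single KO summit of 20.8 lay 4172 bp away. Barhl2 is a homeobox factor of the retina and forebrain, and its summit sequence is the first shown above.

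The Alx4 summit, 33.5, had KO summits of 20.9 and 9.37 on 1 side, at 4.594 and 8.833 kb. Alx4 is a homeobox factor of limb and skull. The Dmrt3 summit, 31.8, stood between KO summits of 12 at 6.089 kb and 4.05 at 8.912 kb. Dmrt3 is a DM-domain factor of spinal interneurons. The Nkx2-5 summit, 31.3, had KO summits of 15.8 and 7.99 on its 2 sides at 3.519 and 3.425 kb. This cardiac homeobox gene had 2 more high WT summits, both kept. One of 16.4 lay at 3.774 kb, near the KO summit of 7.99, and one of 21.4 at 5.32 kb, near a KO summit of 12 at 5.34 kb.

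The Lhx2 summit, 31.2, had a KO summit of 16.9 at 9.539 kb on 1 side and lower ones, from 4.77 at 5.498 kb, on the other. Lhx2 is a LIM homeobox factor of the forebrain and eye that hepatic stellate cells also use. At En2, an engrailed homeobox gene of the midbrain and hindbrain, a single WT summit of 30.1 stood between KO summits of 14.0 and 15.6 at 6.121 and 8.512 kb. At all 6 genes the KO summits within 10 kb were lower in value than the wildtype-only summit, each value being relative to its own library.

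Sim1, a basic helix-loop-helix PAS factor of the hypothalamus, had a summit of 27.2, and Dlx6, a distal-less homeobox gene of the jaw, one of 26.7 with a KO summit of 14.6 at 3353 bp. Ndrg4, a gene of brain and heart, had a summit of 23.6 with no KO summit above 5.27 within 10 kb. Slit1, a ligand of the Robo axon guidance receptors, had a summit of 20.3 with a KO summit of 16 at 4912 bp. The remaining 6 of the 16 genes, named after their values were seen, were Rap1gap2 (20.1), Bcl11b (16), Prox1 (15.5), Irx1 (12.1), Krt71 (11.8) and Pcdh8 (10.3). A KO summit lay within 5 kb of the start itself at all 6.

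Over all genes, 105 of 20807 starts had a wildtype-only summit within 2 kb (0.505%). Of 2956 starts with any WT summit of value 4 or more they made up 3.55%. At 100 of the 105 no kept summit was present, and at 60 no KO summit of any value lay within 5 kb of the start. Isolated summits marked 26 of the starts.

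Gene lists were counted against those shares, which the rule itself fixed, so the counts are a description. Homeobox genes outside the Hox clusters had wildtype-only summits at 8 of 107 starts (7.48%), which is 14.3% of their 56 starts with a WT summit of value 4 or more. The 8 were Alx4, Barhl2, Dlx6, En2, Irx1, Lhx2, Nkx2-5 and Prox1, with values of 12.1 to 34.6. All 8 therefore belonged to the strong class. Hox genes had none at 39 starts, 9 of which had a WT summit of value 4 or more, and secreted developmental signals none at 79 starts, with 43 marked in WT.

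Among the Pax, T-box, Gata and Fox factors 1 of 70 starts was a member, Eomes, a T-box gene of mesoderm and cortex, with a value of 7.77 and a kept summit beside it. Among the Sox and basic helix-loop-helix factors 2 of 65 were, Hes3 at 7.66 and Msgn1, a factor of presomitic mesoderm, at 4.08. The hepatocyte list had 1 of 46, Prox1, a homeobox regulator of hepatocytes and lymphatic endothelium, whose summit of 15.5 lay 475 bp inside the gene with a KO summit of 10.7 at 3056 bp. The neuronal list had Slit1 of 44 genes, the cadherin and protocadherin list Pcdh8 of 89, and the stellate and fibroblast list Lhx2 of 18. None was found at starts of 12 biliary, 22 endothelial, 26 blood cell, 34 epithelial-mesenchymal transition, 23 cell cycle and p53, 31 Polycomb or 28 SWI/SNF genes, nor at 10 genes that the study singled out. In that order, only 6, 5, 6, 6, 2, 7, 4 and 2 of their starts had a WT summit of value 4 or more. Of all such starts 3.55% had a member, so finding none among so few is near that share.

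Within gene bodies extended by 2 kb, 532 of 20807 genes held a wildtype-only summit (2.56%), and 100 of these held no KO H3K27me3 summit at all. Their median length was 45.2 kb, against 25.7 kb for genes with any WT summit of value 4 or more and 17.6 kb for all genes. Most members per gene were counted in Gm20388 (15), a read-through model spanning many genes, followed by Sorcs2, a sortilin-family receptor, with 6. The calcium channel gene Cacna1c and the matrix protein gene Crtac1 had 5 each, and Col13a1, Rasgef1c, Mei1, Anks1b, Ankrd36 and Shank1 had 4 each. Members were also counted among the WT summits of value 4 or more in the same gene. They were 15 of 145 in Gm20388, 5 of 28 in Cacna1c, 6 of 20 in Sorcs2 and 4 of 9 in Shank1. Over all autosomal WT summits of that value the share was 4.94%. These genes were picked for holding the most members, which itself favours high shares. Each of these genes also held KO H3K27me3 summits, 75 in Cacna1c, 52 in Sorcs2 and 11 in Shank1.

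The isolated members were weak summits in regions with no KO summit. The highest, 7.77, lay 1321 bp inside Adam19, which encodes a membrane metalloprotease, with the nearest KO summit 65361 bp away and a second member in the same site. The next were 6.21 in an intron of Strip2, 6.21 at the start of Kcnab3, a potassium channel beta subunit gene, and 6.11 at a transcript start 12796 bp upstream of Tead4, a Hippo pathway factor. A summit of 5.94 lay 1865 bp upstream of Kmt2a, which encodes an H3K4 methyltransferase and Polycomb opponent, with the nearest KO summit 87376 bp away. Intergenic ones included 5.75 far upstream of Sulf2, 5.54 upstream of the kinase gene Fyn and 5.47 upstream of Ttll4.

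Mfsd6 and Plag1, a zinc finger oncogene, had isolated summits of 5.47 at their starts, at 224500 and 35709 bp from the nearest KO summit. Isolated members were not always single, since 113 of the 199 had another WT summit, of any value, within 3 kb. WT summits of any value at most 3 kb apart were chained into runs. Of 1201 runs with a member, 767 had no KO summit within 3 kb of any of their summits. The longest was a run of 12 WT summits over 16459 bp near Mgmt, of which 1 was a member.

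Next, the places of the summits were compared with those of kept summits, a measure the rule did not use. Promoters, within 2 kb of any annotated transcript start, held 237 members (18.3%, 16.3 to 20.5) and 23.9% (23.3 to 24.4) of kept summits, a difference of -5.58 percentage points (-7.66 to -3.32). Among summits of 4 to 5 the difference was -0.527 points (-2.84 to 2.04), and among those of 10 or more it was -23.7 (-32.8 to -13.8), with 38.2% of strong members against 62.0% of strong kept summits. The class from 5 to 10 lay between them, at -6.01 points (-10.4 to -0.729). Weak summits, which had few promoters in both groups, made up 943 of 1296 members and 12924 of 24944 kept summits, so the difference over all summits also holds this difference in strength. Exons held 5.25% (4.16 to 6.6) of members and 3.75% (3.52 to 4.0) of kept summits, introns 31.9% and 31.7%, and intergenic sequence 44.6% (41.9 to 47.3) and 40.6% (40 to 41.3).

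Soft-masked repeat lay under 21.5% (19.3 to 23.8) of members and 17.7% (17.3 to 18.2) of kept summits. Windows of 501 bp with a GC content over 50% and an observed-to-expected CpG ratio over 0.6 were found at 3.94% (3.01 to 5.14) and 5.89% (5.60 to 6.18). Among summits of 10 or more these CpG-rich shares were 29.4% (21.4 to 38.9) and 34.8% (33.0 to 36.8), whose intervals overlap. Chromosomes differed moderately, with members making up 3.72% of the summits on chromosome 4 and 7.58% on chromosome 14.

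To address whether SWI/SNF, Ctcf or cohesin marked these places in WT cells, the nearest summit of each list was sought within 1 kb. Arid1a lay near 57 members (4.40%, 3.41 to 5.66) and 3.34% (3.12 to 3.57) of kept summits, a difference of 1.06 points (0.0482 to 2.34). Brg1 lay near 52 members (4.01%, 3.07 to 5.22) and 2.99% (2.79 to 3.21) of kept summits, a difference of 1.02 points (0.0529 to 2.25). Both intervals reach nearly to 0, and neither sign was stable, as described below.

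Ctcf lay near 152 members (11.7%, 10.1 to 13.6) and 13.4% (13.0 to 13.8) of kept summits, a difference of -1.69 points (-3.38 to 0.226). Rad21 lay near 158 members (12.2%, 10.5 to 14.1) and 15.5% (15 to 15.9) of kept summits, a difference of -3.28 points (-5.01 to -1.34). At promoters the Rad21 difference was -7.10 points (-11.6 to -1.59), and outside them it was -1.55 (-3.35 to 0.517), an interval that includes 0. Ctcf and Rad21 together were found at 5.25% (4.16 to 6.6) and 7.52% (7.20 to 7.85). None of the 4 factors was listed near 986 members (76.1%, 73.7 to 78.3), close to the 75% (74.5 to 75.6) of kept summits.

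The nearest factor summits at members were low, as they were at kept summits. Those of Arid1a had a median value of 2.56 with a maximum of 5.36, and those of Brg1 a median of 2.56 with a maximum of 6.65. Only 1 Arid1a and 2 Brg1 of these nearest summits reached 5, against 45 of Ctcf and 28 of Rad21. At kept summits the medians of the nearest ones were also 2.56 for Arid1a and 2.56 for Brg1. There 15 of 832 Arid1a and 15 of 747 Brg1 summits reached 5. The highest nearest Ctcf summit at a member was 99.3 and the highest nearest Rad21 summit 68.2. Any factor summit of 5 or more within 1 kb was also counted. Shares of members were then 0.154% for Arid1a, 0.231% for Brg1, 3.70% for Ctcf and 2.39% for Rad21. The corresponding shares of kept summits were 0.0641%, 0.0601%, 5.32% and 4.27%. The Ctcf motif core, CCANNAG directly followed by NNGGC, with N for any base and read on both strands, lay within 50 bp of 0.772% (0.420 to 1.41) of members and 0.649% (0.557 to 0.757) of kept summits, and of 14.4% of all Ctcf summits. For 10 of the 152 members with Ctcf within 1 kb, the nearest Ctcf summit held it (6.58%, 3.61 to 11.7). Of the distinct Ctcf summits nearest to kept summits, 8.48% (7.57 to 9.50) did, so the 2 shares were counted differently.

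**Figure D4:**
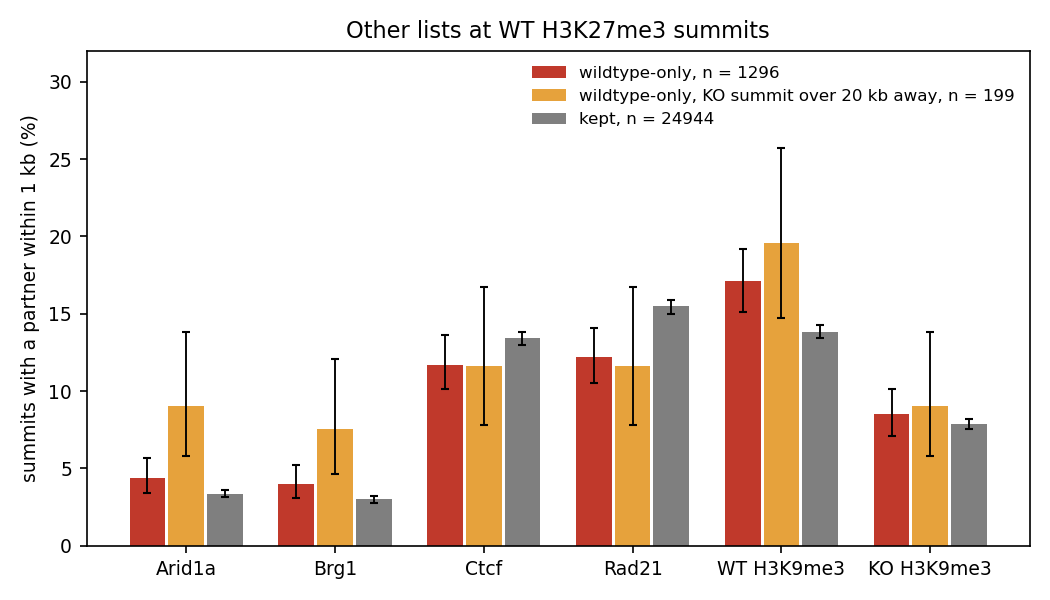
Share of H3K27me3 summits with a summit of each other list within 1 kb (%, vertical axis) for wildtype-only (red, n = 1296), isolated wildtype-only (orange, n = 199) and kept summits (grey, n = 24944), with 95% Wilson intervals as error bars. Isolated members stand at 9.05% for Arid1a, 7.54% for Brg1 and 19.6% for WT H3K9me3, against 3.34%, 2.99% and 13.8% of kept summits. Rad21 stands at 12.2% of members and 15.5% of kept summits.

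Arid1a and Brg1 summits were more often listed at isolated members than at the other members. Arid1a lay near 18 of 199 isolated members (9.05%, 5.80 to 13.8) and 3.56% (2.61 to 4.82) of the 1097 within 20 kb of a KO summit, a difference of 5.49 points (2.0 to 10.4). For Brg1 the shares were 7.54% (4.62 to 12.1) and 3.37% (2.46 to 4.61), a difference of 4.16 points (0.995 to 8.78). Ctcf and Rad21 differed by -0.202 (-4.45 to 5.28) and -0.749 points (-5.02 to 4.75). Against kept summits, isolated members differed by 5.71 points (2.45 to 10.5) for Arid1a and 4.54 (1.62 to 9.07) for Brg1. For WT H3K9me3 the difference was 5.76 (0.827 to 11.8), while the intervals for Ctcf, Rad21 and KO H3K9me3 included 0. The nearest factor summits at isolated members were low, with medians of 2.13 for Arid1a and 2.84 for Brg1. Only 1 Arid1a and 0 Brg1 summits reached 5. The 20 kb limit was not varied.

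At promoters the differences were 16 points (5.59 to 30) for Arid1a and 11.6 (3.06 to 24.7) for Brg1. There Arid1a marked 10 of 46 isolated members (21.7%, 12.3 to 35.6) and 11 of 191 others (5.76%, 3.25 to 10), and Brg1 marked 15.2% (7.57 to 28.2) and 3.66% (1.79 to 7.37). Outside promoters the differences were 2.14 points (-0.747 to 6.98) for Arid1a and 1.92 (-0.985 to 6.77) for Brg1. Counted within 2 kb of the start, 10 of the 26 protein-coding starts with an isolated member had an Arid1a summit (38.5%, 22.4 to 57.5) and 12 a Brg1 summit (46.2%, 28.8 to 64.5). Those shares were near the 37.0% and 41.4% of all 20807 starts. Starts with kept summits and no member had 14.1% and 15.2%.

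Isolated members also lay where H3K27me3 summits were sparser, which their definition may itself favour. They had a median of 2.0 other WT summits within 10 kb, against 5 for the other members. Among summits with at most 1 such neighbour, a grouping added after the first values were seen, Arid1a lay near 7.81% (4.79 to 12.5) of members and 7.54% (6.16 to 9.20) of kept summits. Brg1 there lay near 3.65% (1.78 to 7.33) of members and 8.14% (6.71 to 9.85) of kept summits, opposite in sign to the difference over all summits. With 2 to 4 neighbours the Brg1 shares were 4.37% (2.87 to 6.58) and 4.38% (3.86 to 4.97), and the Arid1a shares 3.95% (2.54 to 6.09) and 4.61% (4.08 to 5.21). The Brg1 share of members thus did not follow the number of neighbours. With 5 or more neighbours the Brg1 shares were 3.85% (2.60 to 5.67) and 2.27% (2.07 to 2.5).

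Rad21 was lower at members than at kept summits in each of the 3 groups by neighbours. With at most 1 neighbour it lay near 14.1% (9.85 to 19.7) of members and 29.3% (26.8 to 32) of kept summits, with 2 to 4 near 12.9% (10.2 to 16.2) and 21.9% (20.8 to 23), and with 5 or more near 11.1% (8.85 to 13.8) and 12.8% (12.3 to 13.3). The corresponding Ctcf shares were 15.1% and 23.3%, 13.1% and 18.7%, and 9.63% and 11.3%. Among strong summits of 10 or more, Rad21 lay near 18.6% (12.3 to 27.3) of members and 29.9% (28.1 to 31.7) of kept summits, a difference of -11.2 points (-17.9 to -2.42). Among summits of 5 to 10 the differences had the other sign, 1.84 points (-2.13 to 6.84) for Ctcf and 1.0 (-3.18 to 6.16) for Rad21, with intervals that include 0. Among strong summits the promoter share was also lower at members, and its part in the Rad21 difference of that class was not tested.

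Factor summits were also read at named sites, which were ranked by H3K27me3 value. Of the 10 highest sites at protein-coding starts, none had Arid1a within 1 kb and only Sim1 had Brg1, a summit of 2.0 at 717 bp. Ctcf and Rad21 together were found at Alx4, with summits of 5.23 and 4.44, and at Dmrt3, with 2.80 and 2.77. The highest wildtype-only summit, in Gm20388, had Ctcf of 5.80 at 103 bp and Rad21 of 2.75 at 44 bp, and the one 2070 bp downstream of the start of Sp9, a zinc finger factor of limb and forebrain, had 5.80 at 37 bp and 5.06 at 7 bp. At Gfy the Ctcf summit was 3.35 at 27 bp and the Rad21 summit 1.62 at 424 bp.

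Arid1a and Brg1 both lay within 1 kb of 10 members (0.772%, 0.420 to 1.41, against 0.385%, 0.315 to 0.470, of kept summits), and 5 of the 10 were isolated. The highest of the 10, 6.22, lay in repeat 80536 bp upstream of Ezh2, the gene of the PRC2 methyltransferase, with Arid1a of 2.80 and Brg1 of 2.22. The summit at Kcnab3 had Arid1a of 5.36 at 752 bp, the highest among the nearest Arid1a summits of members, with Brg1 of 3.16 at 30 bp. At Kmt2a they were 2.04 and 2.67. The summit nearest to Ran had 2.65 and 2.14, and the one nearest to BC107364 had Arid1a of 3.76, Brg1 of 6.65, Ctcf of 8.78 and Rad21 of 5.47, each within 122 bp.

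WT H3K9me3 was also compared. It lay within 1 kb of 221 members (17.1%, 15.1 to 19.2) and 13.8% (13.4 to 14.3) of kept summits, a difference of 3.22 points (1.22 to 5.40). The difference was 5.50 points (3.16 to 8.10) among summits of 4 to 5 and -6.03 (-12.6 to 2.78) among those of 10 or more. KO H3K9me3 lay near 8.49% of members and 7.87% of kept summits, a difference of 0.618 points (-0.820 to 2.29), an interval that includes 0. It pooled a difference of -3.50 points (-5.87 to 0.238) at promoters and one of 1.64 (0.00144 to 3.56) elsewhere.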

How the data were processed

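Peak lists of 8 of the 10 samples were used, and the 2 inputs entered only through peak calling. Titles gave genotype and antibody, and each combination was a group of 1 library. Per the study's methods, bowtie2 was used by the authors for alignment to mm10. SAMtools filtered out reads of low quality, Picard took out PCR duplicates, and MACS2 with its defaults called peaks over the matching input. Versions are not given in the sources used here. Each list the authors deposited gives 1 summit per peak with a −log10 q-value, a unit read from the values, since none lay under 1.30. This value grows with sequencing depth, which is unknown, and was used to filter and rank within a list. Narrow calling can give a broad domain several summits. Whether a summit shifted within a domain while the mark stayed was not tested. Peak widths were not analysed here.

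Distances between summits were computed on the 19 autosomes in Python 3.11.15 with NumPy 2.4.6, pandas 2.3.3 and SciPy 1.17.1, and the distance step was tested on simulated lists. Genes came from GENCODE vM21 and sequence from RefSeq GRCm38. Promoters were within 2 kb of any of 132666 transcript starts, and gene starts those of 20807 protein-coding genes. GC content and CpG ratio were taken over 501 bp. Sites joined summits at most 3 kb apart. Named were the 10 highest of all sites, at protein-coding starts and among isolated summits, the 5 with most summits, the 5 highest with Ctcf and Rad21 and with Arid1a and Brg1, the 10 genes with most members, and members of the gene lists. The members and lists were chosen with earlier results of these data known. With 1 library per group there was no test. Alternatives were the distances, value limits, 1 summit per site, places outside promoters and places held by every list.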

Additional observations from a re-analysis of the deposited data

Results flagged for a closer look

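The comparisons above used the autosomes. On chromosome X, 7 of 114 WT H3K27me3 summits of value 4 or more had no KO summit within 3 kb (6.14%, 95% Wilson interval 3.01 to 12.1), and 3 of the 7 had none within 20 kb. The share on X lay within the range of the autosomes, and it was noted because these summits stood outside every comparison and above the limit that a count of 0 allows. On chromosome Y it was 2 of 5.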

How the results depend on the processing

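Of 66 alternative values, 7 changed sign against the reported one, 1 for Arid1a, 3 for Brg1 and 3 for Ctcf, whose reported interval includes 0. The cause of these changes was not tested. The wildtype-only share was 25% with 1 kb and 1.16% with 10 kb to the KO summit, 2.85% at a WT value of at least 5, 7.20% against KO summits of at least 2 and 6.46% with 1 summit per site. With 10 kb to the KO summit, the differences in percentage points became 3.87 for Arid1a, 3.55 for Brg1 and -3.30 for promoters, and with 1 kb they became 0.277 for Ctcf, a change of sign, and -0.942 for Rad21. With 3 kb to the factor summit they were 2.86 for Arid1a, 3.31 for Brg1 and -3.63 for Ctcf, and with 500 bp 0.315 for Ctcf, a change of sign. At a WT value of at least 5 they were -0.836 for Brg1 and 0.0732 for Ctcf, both changes of sign, -1.27 for Rad21 and -7.73 for promoters. Promoters of 5 kb gave -1.28. Splitting by neighbours was chosen after seeing the data. It gave, with at most 1 neighbour, -4.49 for Brg1, a change of sign, -8.20 for Ctcf and -15.2 for Rad21, and, with 2 to 4, -0.660 for Arid1a and -0.0166 for Brg1, both changes of sign, -5.65 for Ctcf and -9.0 for Rad21. The Rad21 and promoter differences kept their sign under these settings, but several of their intervals include 0. For Rad21 this held with 1 kb to the KO summit (-1.92 to 0.0658) and a WT value of at least 5 (-4.93 to 3.07). It also held with 500 bp (-2.83 to 0.144) and 3 kb (-4.88 to 0.200) to the factor summit. So did places outside promoters (-3.35 to 0.517) and 5 or more neighbours (-3.98 to 1.05). For promoters it held with 10 kb to the KO summit (-7.47 to 1.60) and promoters of 5 kb (-3.97 to 1.47). Within values of 5 to 10 the Rad21 difference was 1.0 (-3.18 to 6.16). No paired analysis was possible because each group held 1 library and no result came from a test. Unknown depth and summits without widths limit all shares, and the KO list was shorter. With 1 H3K27me3 library per genotype, library and genotype cannot be told apart.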
